A study of Mus musculus with 4 samples.

Results

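The mitochondrial ribosomal protein genes encode the protein part of the ribosome that works inside mitochondria. Members were the rows of the deposited count tables whose symbol is Mrpl or Mrps followed by a number and at most 1 letter, which gave 76 of 23284 gene rows. Of these, 49 encode proteins of the large subunit, 26 encode proteins of the small subunit and 1, Mrps36, has been found in the mitochondrial 2-oxoglutarate dehydrogenase complex rather than in ribosome structures. The large-subunit count includes Mrps18a and Mrps30, whose proteins sit in the large subunit in mammalian structures although their symbols name the small one. All 76 members passed the filter on low counts.

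RNA was sequenced from mouse leukemic cells that had been sorted by their high level of c-Kit, the stem cell factor receptor, in a study of the RNA-binding protein Musashi-2, encoded by Msi2, in leukemia stem cells of MLL leukemia. Cells came from 2 Msi2 -/- mice and from 2 Msi2 flox/flox mice, called controls, with 1 library per mouse as far as the design text says. All 4 mice are of strain C57BL/6, and all cells are leukemic. The sources used here do not give the MLL fusion, the Cre that acted on the floxed alleles, the age of the mice, any treatment, or whether leukemias were primary or transplanted.

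Mitochondria keep a small genome of their own, and the mitochondrial ribosome translates its messages into core subunits of the respiratory chain and of ATP synthase. All of its proteins are encoded in the nucleus, made in the cytosol and imported, and they assemble around 2 ribosomal RNAs made from mitochondrial DNA. Some have counterparts in bacterial ribosomes and others were added in the mitochondrial lineage. Leukemic cells of myeloid origin are known for their reliance on mitochondrial translation. Nuclear regulators of such genes include the ETS-family factor GABP, nuclear respiratory factor NRF1 and YY1, as well as MYC.

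The promoters of 5 members are shown because they span the patterns described below. Mrpl50 and Mrps22 stood lower in both Msi2 -/- mice, Mrpl17 stood higher, Mrpl12 was level, and Mrpl33 differed in a single library. Each window runs from 250 bases before the RefSeq start to 50 bases after it on GRCm38.p6, in the direction of transcription. They lie at chr4:49521034-49521333 on the minus strand (Mrpl50), chr9:98601630-98601929 on the minus strand (Mrps22), chr7:105811038-105811337 on the minus strand (Mrpl17), chr11:120484387-120484686 on the plus strand (Mrpl12) and chr5:31613701-31614000 on the plus strand (Mrpl33). Capitals mark matches, on either strand, to the ETS motif CCGGAAG, the NRF1 motif, the YY1 motif AAGATGGC or the E-box CACGTG that MYC binds.
Mrpl50: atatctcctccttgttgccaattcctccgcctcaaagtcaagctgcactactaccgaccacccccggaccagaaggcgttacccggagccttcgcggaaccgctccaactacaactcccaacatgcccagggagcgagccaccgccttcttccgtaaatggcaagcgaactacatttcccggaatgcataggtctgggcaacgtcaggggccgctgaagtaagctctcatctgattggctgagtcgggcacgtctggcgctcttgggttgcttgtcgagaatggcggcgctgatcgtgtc
Mrps22: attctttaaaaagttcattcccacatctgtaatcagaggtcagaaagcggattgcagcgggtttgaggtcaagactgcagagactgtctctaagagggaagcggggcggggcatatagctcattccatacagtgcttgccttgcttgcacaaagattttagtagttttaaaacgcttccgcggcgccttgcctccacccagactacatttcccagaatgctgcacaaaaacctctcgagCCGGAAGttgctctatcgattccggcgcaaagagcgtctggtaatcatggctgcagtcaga
Mrpl17: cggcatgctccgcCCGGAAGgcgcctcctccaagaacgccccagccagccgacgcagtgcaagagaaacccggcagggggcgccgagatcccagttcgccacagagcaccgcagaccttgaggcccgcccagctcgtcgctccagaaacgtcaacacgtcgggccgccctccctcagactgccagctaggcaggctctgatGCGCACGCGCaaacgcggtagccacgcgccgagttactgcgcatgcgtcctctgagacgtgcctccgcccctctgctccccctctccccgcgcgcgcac
Mrpl12: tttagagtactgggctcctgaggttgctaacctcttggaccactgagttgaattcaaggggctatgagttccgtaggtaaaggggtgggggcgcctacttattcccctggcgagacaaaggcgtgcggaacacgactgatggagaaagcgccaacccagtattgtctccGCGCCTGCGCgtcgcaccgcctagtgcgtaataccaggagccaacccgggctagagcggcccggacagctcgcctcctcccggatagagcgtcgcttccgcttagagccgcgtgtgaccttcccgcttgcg
Mrpl33: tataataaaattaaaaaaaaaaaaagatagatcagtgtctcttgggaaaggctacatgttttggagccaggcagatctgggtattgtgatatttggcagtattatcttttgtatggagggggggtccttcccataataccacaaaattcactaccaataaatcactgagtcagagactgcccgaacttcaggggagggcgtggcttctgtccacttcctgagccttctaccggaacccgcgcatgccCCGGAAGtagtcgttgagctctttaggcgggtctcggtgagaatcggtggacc

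Of the 76 members, 67 had a window in the RefSeq promoter table. The ETS motif was found for 24 of them, or 35.8%, against 19.3% of the tested genes and 9.93% of all genes in that table. The NRF1 motif was found for 17.9%, against 11.2% of tested and 5.19% of all genes. The YY1 motif was also found for 17.9%, against 5.1% of tested and 3.19% of all genes. The E-box was found for 7.46%, against 11.7% of tested and 8.09% of all genes. Of 60 cytosolic ribosomal protein genes with a window, 41.7% had the ETS motif, 8.33% the NRF1 motif, 8.33% the YY1 motif and 10% the E-box. A match is a run of letters and was not examined for binding. The ETS and YY1 motifs share the letters AAG, so that 1 stretch can match both. In the printed windows, the ETS match began at base -11 for Mrps22, -237 for Mrpl17 and -3 for Mrpl33, and the NRF1 match at base -49 for Mrpl17 and -81 for Mrpl12. Mrpl50 had no match to these letters in its window. The median log2 fold change was -0.005 for the 24 members with an ETS match and -0.04 for the 43 without. It was -0.045 for the 12 members with an NRF1 match and -0.016 for the 55 without. The YY1 motif divided the members into 12 with a median of -0.01 and 55 with a median of -0.031. For the E-box the medians were 0.002 for the 5 members with a match and -0.034 for the 62 without. None of these differences was tested.

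The 4 libraries held between 72273679 and 87564774 counts assigned to genes, and a member had between 543 and 18793 counts in a library. Levels are given as CPM, counts scaled to the library size after TMM normalization, and 3 counts correspond to between 0.0343 and 0.0412 CPM. Msi2 stood at 0.0915 and 0.221 CPM in the Msi2 -/- libraries, against 34.6 and 48.9 CPM in the controls. The 6 markers fixed for the sorted leukemic cells were all present, with Kit at 68.1 and 57.1 CPM in Msi2 -/- cells and 50.4 and 51.9 CPM in controls. Mpo, myeloperoxidase of the granulocyte lineage, stood at 2120 and 2160 CPM in Msi2 -/- cells and 4000 and 4950 CPM in controls (log2 fold change -1.07, adjusted p = 0.265 by edgeR and 8.4e-12 by DESeq2), and the other 4 overlapped between the groups. T cell and erythroid markers were all below 1 CPM in every library, and of the 4 B cell markers Cd79b alone was above it. The 7 late neutrophil markers, all detected, summed to 1390 and 2220 CPM in Msi2 -/- cells and 1020 and 657 CPM in controls. They did not move together. S100a8, S100a9, Ltf and Lcn2 were higher in both Msi2 -/- mice without overlap, and Ngp and Camp overlapped. Cxcr2 was lower, at 1.58 and 3.57 CPM in Msi2 -/- cells and 6.59 and 9.4 CPM in controls. The 5 monocyte markers with a row summed to 1230 and 2120 CPM in Msi2 -/- cells and 1510 and 1350 CPM in controls. Of these, Csf1r, Itgam and Cd68 were higher in both Msi2 -/- mice without overlap, while Ly6c2 and Emr1 overlapped. Of the stromal markers, Pecam1 stood at 24.6 and 166 CPM in Msi2 -/- cells and 58.8 and 72.8 CPM in controls. The other stromal markers, Col1a1 and Cxcl12, were below 1 CPM in every library. Xist, a marker of female cells, stood at 0.469 and 0.624 CPM in Msi2 -/- cells and 1450 and 654 CPM in controls. If this reflects the sex of the mice, sex and genotype cannot be told apart here. Of the members, 0 are listed on X or Y in the RefSeq table, and their dependence on sex could not be examined with these libraries. The part of these differences in the members' values was not tested. In bulk RNA, fewer cells of a type and less RNA per cell cannot be told apart.

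As a whole, the mitochondrial ribosomal protein genes took up nearly the same part of the transcriptome in both genotypes. Their levels summed to 4915 and 4752 CPM in the Msi2 -/- libraries, against 4901 and 4933 CPM in the controls. These sums are 0.492% and 0.475% of the scaled library in Msi2 -/- cells, and 0.49% and 0.493% in controls. The Msi2 -/- mean was 4834 ± 115 CPM and the control mean 4917 ± 22.6 CPM (SD, n = 2 each), a log2 ratio of -0.025. Msi2 -/- replicate 1 fell between the 2 controls, so the groups overlap, and Msi2 -/- replicate 2 was the lowest of the 4 libraries. That library was also the lowest of the 4 for 33 members, against 14 for Msi2 -/- replicate 1, 14 for control 1 and 15 for control 2.

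No member passed the main test. In edgeR's quasi-likelihood test, with Benjamini-Hochberg adjustment over 13215 genes and a threshold of 0.05, the calls among members were 0 higher and 0 lower. Over all tested genes 0% were called higher and 0.00757% lower, a single gene, Ikzf2. At an unadjusted p under 0.05 there were 0 members higher and 4 lower, against 6.68% higher and 6.17% lower over all tested genes. DESeq2, at the same threshold, called 0 members higher and 2 lower, against 3.1% higher and 2.71% lower over all genes to which it gave an adjusted p. For 15 members, or 19.7%, both Msi2 -/- mice lay above both controls, and for 24, or 31.6%, both lay below. The same held for 23.7% and 24.6% of all tested genes. Log2 fold changes were above 0 for 31 members and below 0 for 45, against 49.7% above and 50.2% below over all tested genes. Their median was -0.027, against -0.002 over all tested genes, and without Msi2 -/- replicate 2 it was 0.001.

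The members varied little from mouse to mouse. The highest of the 4 libraries was less than 1.2 times the lowest for 53 members, or 69.7%. The same held for 32.3% of all tested genes and for 42.4% of the 8332 tested genes whose mean log2 CPM lay within the members' range of 2.86 to 7.70. The median of that ratio was 1.15 for the members and 1.23 for those 8332 genes. The lower end of the range is set by Mrpl23 alone, and the next member stood at 3.88. Those genes are thus not matched to the members in level within the range. Log2 fold changes of the members ran from -0.40 to 0.28, with standard errors from 0.0619 to 0.346 and a median of 0.0891. That median was 0.148 over all tested genes. It was 0.071 for cytosolic ribosomal protein genes and 0.0755 for oxidative phosphorylation subunit genes, so a small spread was not particular to the members. The 95% interval of the fold change, unadjusted for the number of genes, lay within a log2 change of 1 (2-fold) either way for 75 members. The same held for 66.6% of all tested genes, which include genes of lower level. The interval lay within 0.5 (1.41-fold) for 67 members and for 5387 of the 13215 tested genes. Mrpl48 was the exception at 1, and Mrpl19, Mrpl50, Mrps22, Mrpl38, Mrpl17, Mrpl52, Mrpl33, Mrpl48 and Mrpl23 were the 9 exceptions at 0.5.

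**Figure D1:**
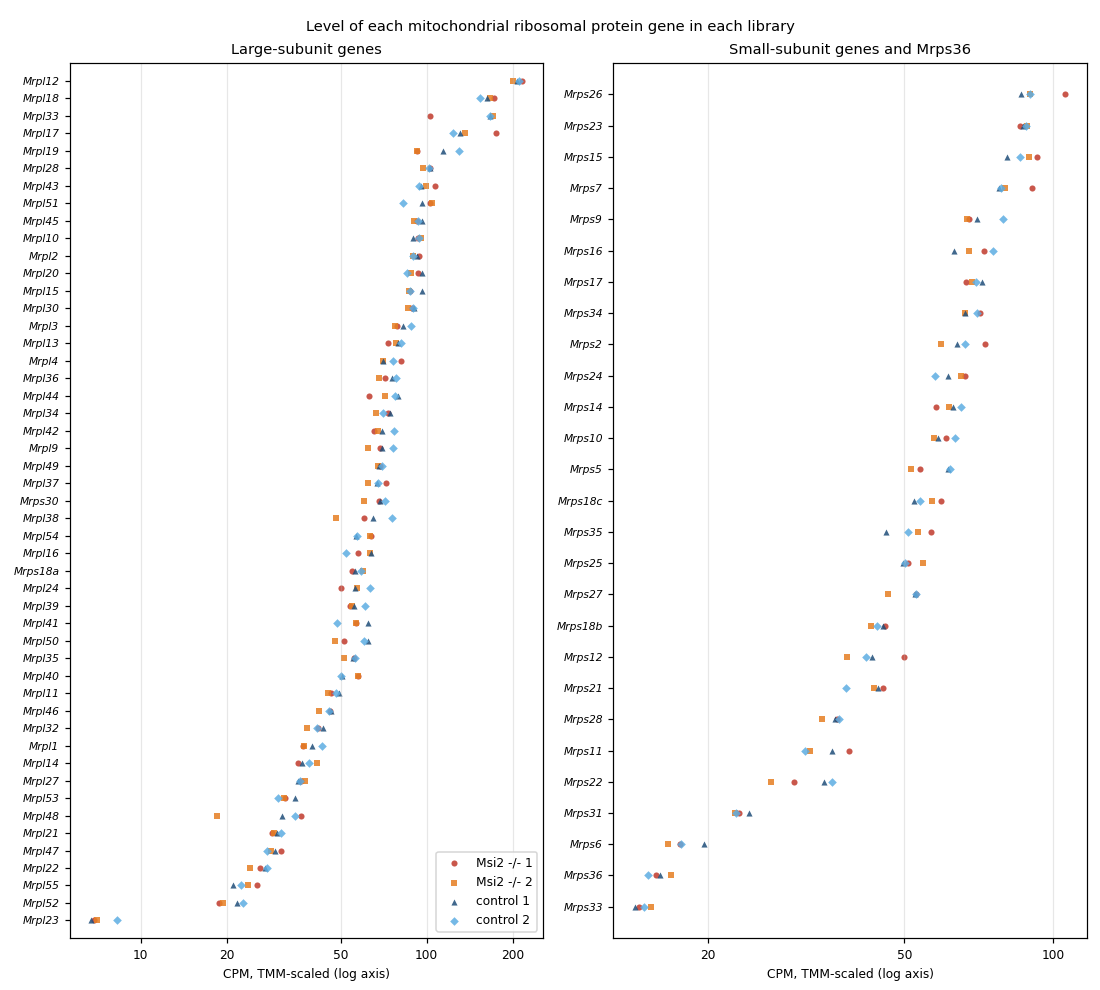
Level of each of the 76 members in each mouse, in CPM on a log axis, with genes ordered by their mean within each panel; colours and shapes mark the 4 libraries. For 53 members the 4 libraries lie within 1.2-fold, and Mrpl33 in Msi2 -/- replicate 1 and Mrpl48 in Msi2 -/- replicate 2 stand apart.

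Among large-subunit genes, the members with the smallest p below 0 were Mrpl19, Mrpl50, Mrpl44, Mrpl38, Mrpl36 and Mrpl52. Mrpl19 encodes a counterpart of bacterial L19. It had 92.6 and 92.3 CPM in Msi2 -/- cells, against 114 and 130 CPM in controls. The Msi2 -/- mice nearly coincided, and both lay below both controls. Its log2 fold change was -0.40 (SE 0.0891, 0.759-fold), the edgeR adjusted p was 0.308 and the DESeq2 adjusted p was 0.0181. Mrpl50 encodes a protein with no bacterial counterpart. It had 51.3 and 47.9 CPM in Msi2 -/- cells, against 62.2 and 60.6 CPM in controls. All values of the Msi2 -/- group were again below those of the controls, by more than either group's spread. Its log2 fold change was -0.31 (SE 0.078, 0.807-fold), the edgeR adjusted p was 0.333 and the DESeq2 adjusted p was 0.049. Mrpl19 and Mrpl50 are the 2 members DESeq2 called, and in edgeR neither passed with any 1 library left out.

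Mrpl44, whose protein has a fold related to that of RNase III, had 62.8 and 71.2 CPM in Msi2 -/- cells, against 79.1 and 77.5 CPM in controls. Mrpl38, a mitochondria-specific protein gene, had 60.5 and 48.2 CPM in Msi2 -/- cells, against 64.9 and 75.9 CPM in controls. The groups did not overlap for either gene, but for Mrpl38 the mice of each group were far apart, and its log2 fold change of -0.37 (SE 0.15) was -0.54 without Msi2 -/- replicate 1 and -0.22 without replicate 2. Mrpl36, the counterpart of the smallest bacterial large-subunit protein, had 71.5 and 67.9 CPM in Msi2 -/- cells, against 75.5 and 78.3 CPM in controls. Mrpl52, a mitochondria-specific gene, had 18.8 and 19.4 CPM in Msi2 -/- cells, against 21.8 and 22.8 CPM in controls. Both genes had lower values in each Msi2 -/- mouse than in any control (edgeR adjusted p of 0.454 for Mrpl36 and 0.468 for Mrpl52).

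Above 0, the large-subunit genes of smallest p were Mrpl40, Mrpl54, Mrpl51, Mrpl17 and Mrpl43. Mrpl40, a mitochondria-specific protein gene, had 57.3 and 57.5 CPM in Msi2 -/- cells, against 50.6 and 50.2 CPM in controls. The mice of each group lay within 1 CPM of each other, and the groups were well apart. The log2 fold change was 0.19 (SE 0.0708, 1.14-fold), the edgeR adjusted p was 0.394 and the DESeq2 adjusted p was 0.237. Mrpl54 had 63.7 and 63.3 CPM in Msi2 -/- cells, against 56.7 and 57.1 CPM in controls (log2 fold change 0.16, SE 0.0672, edgeR adjusted p = 0.419). Mrpl51 had 103 and 104 CPM in Msi2 -/- cells, against 96.5 and 82.6 CPM in controls. Both encode mitochondria-specific proteins, and in both the Msi2 -/- mice lay closer together than the distance between the groups. For Mrpl51 the controls were far apart. Its log2 fold change of 0.21 was 0.33 without control 1 and 0.11 without control 2. Mrpl17, a counterpart of a bacterial protein at the rim of the exit tunnel for new chains, had 174 and 136 CPM in Msi2 -/- cells, against 131 and 124 CPM in controls. Its log2 fold change of 0.28 (SE 0.138) leaned on replicate 1 and was 0.11 without that library. Mrpl43, mitochondria-specific, had 107 and 99.7 CPM in Msi2 -/- cells, against 95.6 and 93.9 CPM in controls.

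Among small-subunit genes, Mrps5 and Mrps22 had the smallest p below 0. Mrps5, a counterpart of a bacterial protein that bears on decoding accuracy, had 53.7 and 51.5 CPM in Msi2 -/- cells, against 61.2 and 61.8 CPM in controls (log2 fold change -0.22, SE 0.0714, edgeR adjusted p = 0.359). Mrps22, a mitochondria-specific gene, had 29.9 and 26.8 CPM in Msi2 -/- cells, against 34.3 and 35.6 CPM in controls (log2 fold change -0.30, SE 0.109, edgeR adjusted p = 0.383). In both genes every Msi2 -/- value was below every control value. Together with Mrpl19 and Mrpl50 these are the 4 members at an unadjusted p under 0.05, and the 4 whose 95% interval leaves out 0. Above 0, Mrps35 had 56.7 and 53.3 CPM in Msi2 -/- cells, against 45.8 and 50.9 CPM in controls. Mrps24, the mitochondrial counterpart of bacterial S3, had 66.4 and 65.0 CPM in Msi2 -/- cells, against 61.4 and 57.8 CPM in controls. Mrps15 had 92.7 and 89.4 CPM in Msi2 -/- cells, against 80.7 and 85.6 CPM in controls. The groups did not overlap for these 3 genes, and edgeR adjusted p ran between 0.469 and 0.479.

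**Figure D2:**
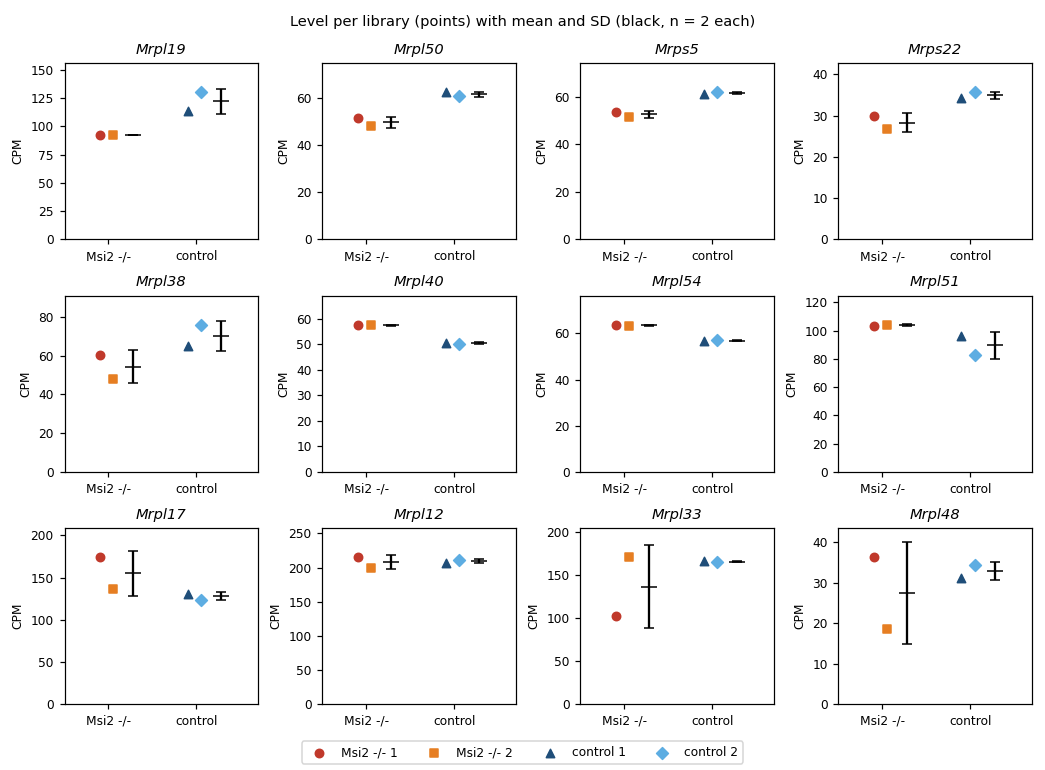
CPM of 12 members in each mouse, with the group mean and SD in black (n = 2 each), on axes that start at 0. Mrpl19, Mrpl50, Mrps5, Mrps22 and Mrpl38 lie lower in both Msi2 -/- mice, Mrpl40, Mrpl54, Mrpl51 and Mrpl17 lie higher, Mrpl12 overlaps, and in Mrpl33 and Mrpl48 a single Msi2 -/- library is low.

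A further 2 members were chosen after their values were seen, because a single Msi2 -/- library stood apart. Mrpl33, which encodes a very small protein of the large subunit, had 103 and 171 CPM in Msi2 -/- cells, against 167 and 166 CPM in controls. Msi2 -/- replicate 1 was the low library, and the other 3 lay close together. The log2 fold change was -0.28 (SE 0.255) with all libraries and 0.05 without Msi2 -/- replicate 1. Mrpl48, a mitochondria-specific gene, had 36.3 and 18.5 CPM in Msi2 -/- cells, against 31.3 and 34.5 CPM in controls. Here Msi2 -/- replicate 2 was the low library, and replicate 1 was the highest of the 4. The log2 fold change was -0.27 (SE 0.346) with all libraries and 0.14 without Msi2 -/- replicate 2. Mrpl48 overlaps Rab6a in the RefSeq gene table and has a pseudogene named after it. Rab6a had 137 and 152 CPM in Msi2 -/- cells, against 146 and 137 CPM in controls. Whether the overlap or the pseudogene bears on the low Mrpl48 value was not tested. Mrpl33, Mrpl48 and Mrpl38 were the 3 members whose highest library was more than 1.5 times the lowest.

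Several members were described whatever their values, as landmarks of the ribosome. Mrpl12, a protein of the stalk that engages translation factors and, in human cells, a partner of the mitochondrial RNA polymerase, had 215 and 200 CPM in Msi2 -/- cells, against 207 and 211 CPM in controls. It was the most abundant member in CPM, the groups overlapped, and the 95% interval of its log2 fold change ran from -0.198 to 0.183. Mrpl45, which links the ribosome to the inner membrane at the exit tunnel, had 92.6 and 90.6 CPM in Msi2 -/- cells, against 96.6 and 93.3 CPM in controls, with an interval from -0.222 to 0.12 although the groups did not overlap. Mrps12, at the decoding centre, had 49.9 and 38.2 CPM in Msi2 -/- cells, against 43.0 and 41.8 CPM in controls. Its Msi2 -/- values lay on either side of the controls. Mrpl41, described in human cells as a binding partner of p53, had 56.5 and 56.6 CPM in Msi2 -/- cells, against 62.5 and 48.4 CPM in controls, and here the controls were the group that spread.

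The 3 Mrps18 paralogs take different places in the ribosome, a and b being mitochondria-specific forms and c the counterpart of bacterial S18. Mrps18a had 54.7 and 60.0 CPM in Msi2 -/- cells, against 56.2 and 58.7 CPM in controls. Mrps18b had 45.6 and 42.7 CPM in Msi2 -/- cells, against 45.2 and 44.0 CPM in controls. Both overlapped between the groups. Mrps18c had 59.3 and 57.0 CPM in Msi2 -/- cells, against 52.2 and 53.9 CPM in controls, and did not overlap (log2 fold change 0.13, SE 0.0738, edgeR adjusted p = 0.501). Mrps30, a large-subunit protein gene despite its symbol, had 68.0 and 60.2 CPM in Msi2 -/- cells, against 68.5 and 71.6 CPM in controls, without overlap but with replicate 1 close to control 1. Mrps36 had 15.7 and 16.8 CPM in Msi2 -/- cells, against 16 and 15.1 CPM in controls, and overlapped. It has 3 pseudogenes named after it. Reads not uniquely aligned were counted for no gene, so some of its reads may be missing.

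**Figure D3:**
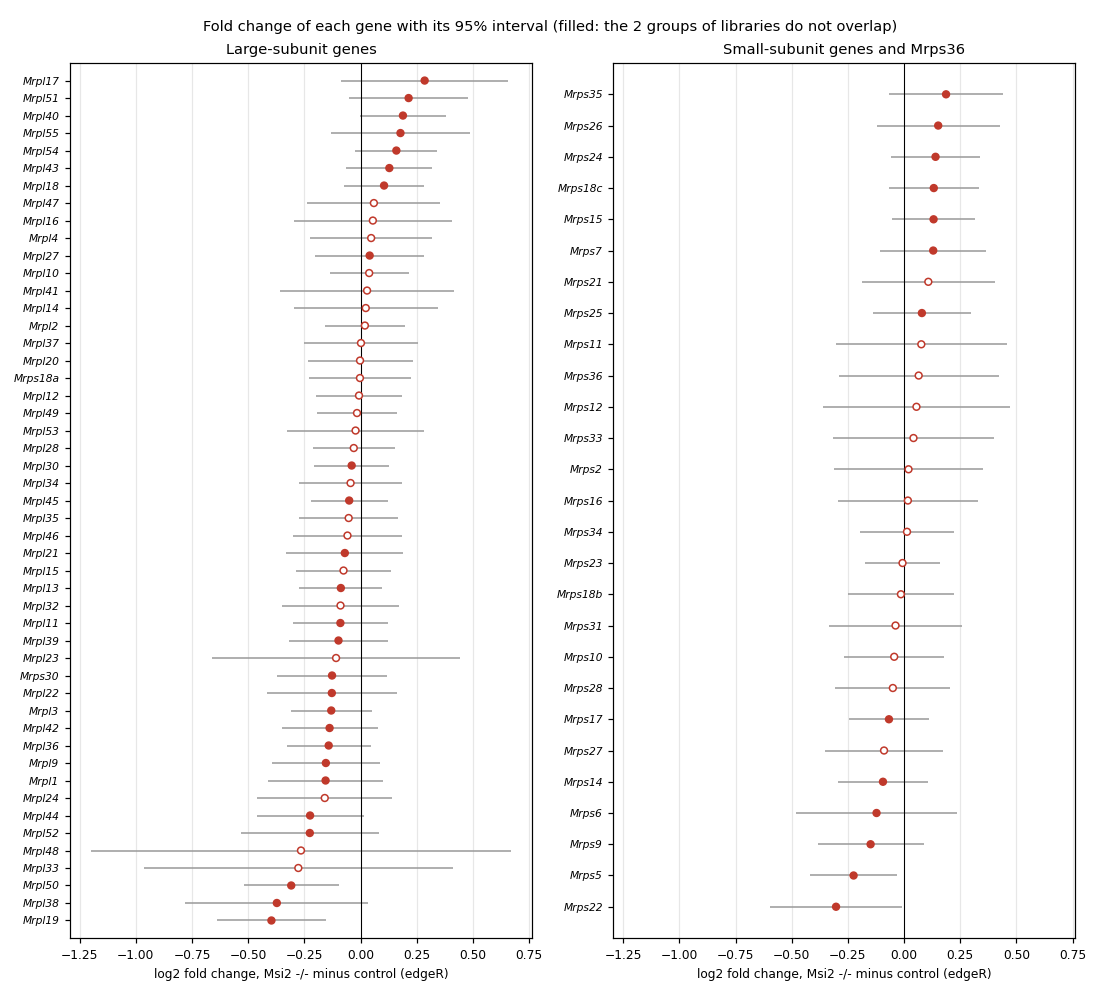
Log2 fold change, Msi2 -/- minus control, of each member by edgeR, with its 95% interval as a line; filled points mark genes whose groups of 2 mice do not overlap. The intervals of Mrpl19, Mrpl50, Mrps5 and Mrps22 leave out 0, and those of Mrpl33 and Mrpl48 are among the widest.

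The subunits are given side by side, and the difference between them was not tested. In the large subunit, 33 of 49 genes were below 0 in log2 fold change and 16 above, and the median was -0.051. In this subunit 18 genes (36.7%) lay lower in both Msi2 -/- mice without overlap and 8 (16.3%) lay higher, where the shares over all tested genes were 24.6% and 23.7%. Of 26 small-subunit genes 14 were above 0 and 12 below, with a median of 0.015, and 6 (23.1%) lay lower and 7 (26.9%) higher without overlap. The small-subunit median was -0.019 when total counts replaced TMM scaling and -0.041 without Msi2 -/- replicate 1, so its sign depends on these choices. The large-subunit median stayed below 0 under every alternative tried, but was only -0.017 without Msi2 -/- replicate 2. Summed over genes, the large subunit had 3414 and 3340 CPM in Msi2 -/- cells, against 3478 and 3476 CPM in controls. The small subunit had 1485 and 1395 CPM in Msi2 -/- cells, against 1407 and 1442 CPM in controls. The ratio of large to small was 2.30 and 2.39 in Msi2 -/- cells, against 2.47 and 2.41 in controls, so both Msi2 -/- ratios were lower, with replicate 2 close to control 2. These sums weigh genes by CPM and not by length, and the difference in the ratio was not tested. Divided by origin, the 46 members with a bacterial counterpart had a median log2 fold change of -0.042 and the 29 mitochondria-specific members had one of -0.016, which was 0.001 without Msi2 -/- replicate 2.

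Per kilobase of coding sequence, the members spanned a wide range of levels that was similar in all mice. Coding lengths were those of GENCODE M21 and were found for 76 members. The median level was 93.7 CPM per kb, the 10th percentile 44.9 and the 90th percentile 205. The highest was Mrpl33 at 778 CPM per kb over a coding length of 195 bases, ranging from 529 to 877 over the libraries. Mrpl12 followed at 345 CPM per kb (332 to 357), then Mrpl18, the counterpart of a bacterial protein that binds ribosomal RNA, at 303 (285 to 319), and Mrpl17 at 268 (235 to 330). Mrpl33 and Mrpl12 each stood clear of the next gene in all libraries, whereas the ranges of Mrpl18 and Mrpl17 overlapped. The lowest was Mrpl23, another protein gene of the exit tunnel rim, at 14.0 CPM per kb (13.1 to 16.1). Above it came Mrps31 at 20.1 (19.7 to 21.0), Mrps22 at 29.4 (24.8 to 33.0) and Mrpl47 at 38.6 (36.5 to 41.0), without overlap between these 4. Coding length leaves out UTRs, so short genes are overstated. Of the genes ranked by it, Mrpl23 has 1 pseudogene named after it and Mrpl18 overlaps Tcp1. Whether this bears on their levels was not tested. With whole transcript length, 3 of the 4 highest and 2 of the 4 lowest stayed in place, Mrpl30 taking the place of Mrpl17, and Mrps25 and Mrpl48 those of Mrps22 and Mrps31.

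The 7 mitochondrial ribosomal proteins with other symbols had 0 calls in edgeR or DESeq2 and, at an unadjusted edgeR p under 0.05, 0 higher and 1 lower, with 4 above 0 and 3 below. Ptcd3, a pentatricopeptide-repeat protein gene of the small subunit, had the smallest p, at 83.2 and 78.1 CPM in Msi2 -/- cells, against 95.3 and 97.6 CPM in controls (log2 fold change -0.26, SE 0.0684, edgeR adjusted p = 0.333). Gadd45gip1, a large-subunit protein gene, had 68.0 and 60.3 CPM in Msi2 -/- cells, against 53.3 and 59.1 CPM in controls. Dap3, the GTP-binding small-subunit protein gene, had 112 and 108 CPM in Msi2 -/- cells, against 108 and 122 CPM in controls, and overlapped. The list median was 0.02, -0.015 with total counts in place of TMM scaling and -0.026 without control 1.

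Genes that serve mitochondrial translation without being ribosomal proteins lay mostly below 0. Of 15 tested translation factors 2 were above 0 and 13 below, with a median of -0.107, and 8 (53.3%) lay lower in both Msi2 -/- mice and 0 higher, against 24.6% lower and 23.7% higher over all tested genes. Lrpprc, which stabilises mitochondrial mRNAs, had 140 and 130 CPM in Msi2 -/- cells, against 156 and 158 CPM in controls, and Guf1, an elongation factor gene, had 35.4 and 39.5 CPM in Msi2 -/- cells, against 43.6 and 49.1 CPM in controls. Of 26 genes of ribosome assembly and rRNA modification 7 were above 0 and 19 below, with a median of -0.129. DESeq2 called 0 of these higher and 3 lower, namely Mterfd1, Rpusd4 and Mettl17, where it called 3.1% of all genes higher and 2.71% lower. Mterfd1, a gene of large-subunit assembly, had 20.2 and 19.4 CPM in Msi2 -/- cells, against 29.2 and 30.8 CPM in controls (log2 fold change -0.60, SE 0.108, adjusted p = 0.289 by edgeR and 0.000163 by DESeq2). Rpusd4, a pseudouridine synthase gene, had 33.8 and 32.4 CPM in Msi2 -/- cells, against 41.6 and 41.3 CPM in controls. In all these named genes both Msi2 -/- values lay below both controls.

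The list of mitochondrial tRNA synthetase genes also holds Gatc and Qrsl1, which encode subunits of an amidotransferase and not synthetases. Of its 19 genes 5 were above 0 and 14 below, with a median of -0.07. Iars2, the isoleucine enzyme, had 122 and 122 CPM in Msi2 -/- cells, against 161 and 169 CPM in controls (log2 fold change -0.43, SE 0.0641, adjusted p = 0.271 by edgeR and 9.4e-06 by DESeq2). Mars2, the methionine enzyme, had 27.8 and 27.9 CPM in Msi2 -/- cells, against 33.2 and 35.2 CPM in controls. A mixed list held 18 tested genes of mitochondrial DNA transcription and maintenance and their nuclear regulators. Of these, 5 were above 0 and 13 below, with a median of -0.178. Without overlap, 11 (61.1%) lay lower and 2 (11.1%) higher, against 24.6% and 23.7% of all tested genes. Myc, a driver of ribosome production, had 285 and 322 CPM in Msi2 -/- cells, against 407 and 489 CPM in controls, and Peo1, the mitochondrial DNA helicase gene, had 36.2 and 34.3 CPM in Msi2 -/- cells, against 43.9 and 42.9 CPM in controls. Of the other factors whose motifs were searched in the promoters, Nrf1 had 69.1 and 68.3 CPM in Msi2 -/- cells and 66.3 and 69.1 CPM in controls, and overlapped. Gabpa had 104 and 108 CPM in Msi2 -/- cells and 113 and 117 CPM in controls, both Msi2 -/- values being lower, at a log2 fold change of -0.12 (SE 0.0663) that did not pass in edgeR. Yy1 had 148 and 149 CPM in Msi2 -/- cells and 145 and 165 CPM in controls, and overlapped. DESeq2 called Iars2 in the synthetase list and Myc in the regulator list, both lower, against its 2.71% over all genes. In edgeR 0 genes of these 4 lists passed the adjusted threshold, and at an unadjusted p under 0.05 there were 1 factor, 4 assembly genes, 3 synthetases and 5 regulators lower and 1 synthetase higher, where 6.17% of all tested genes were lower and 6.68% higher. The medians of these 4 lists stayed below 0 under every alternative, and whether they differ from that of the ribosomal proteins was not tested.

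The other ribosome and the respiratory chain are given beside them as values. Of 79 tested cytosolic ribosomal protein genes 66 were above 0 and 13 below, with a median log2 fold change of 0.046, and 43% lay higher in both Msi2 -/- mice against 6.33% lower, where the shares over all tested genes were 23.7% and 24.6%. Their median was 0.011 with total counts in place of TMM scaling. Of 76 tested oxidative phosphorylation subunit genes 42 were above 0 and 34 below, with a median of 0.013 that was -0.021 with total counts and -0.006 without Msi2 -/- replicate 2. Each of these lists comes from the same 4 libraries as the members.

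**Figure D4:**
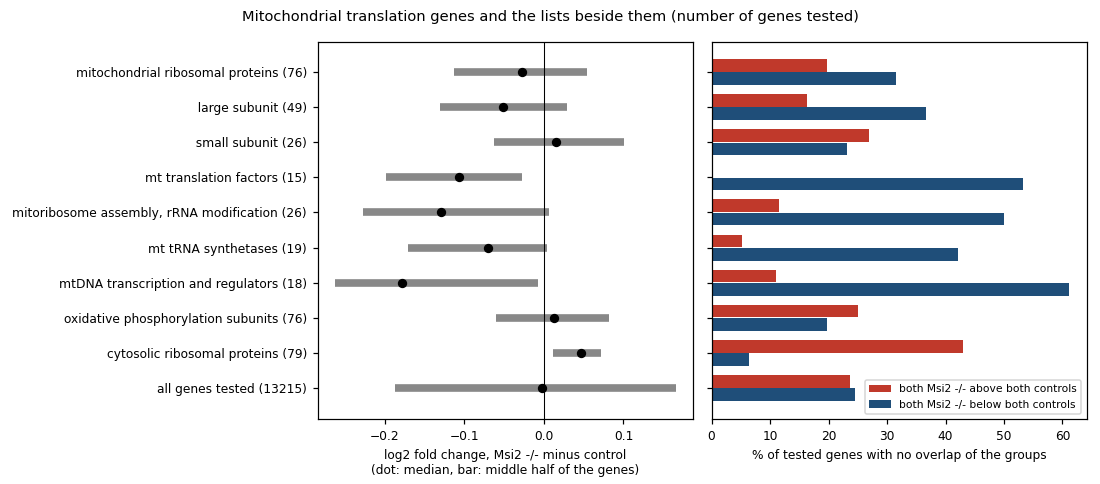
Left, median log2 fold change (dot) and the middle 50% of genes (bar), Msi2 -/- minus control, for the mitochondrial ribosomal protein genes, their subunits and the lists beside them. Right, the percentage of tested genes whose groups do not overlap, with both Msi2 -/- mice above (red) or below (blue) both controls. Members sit near all genes tested, and cytosolic ribosomal protein genes lie highest at a median of 0.046. Lowest, at -0.178, is the mixed list of mitochondrial DNA transcription and maintenance genes and their nuclear regulators.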

How the data were processed

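RNA was sequenced from 4 libraries of sorted c-Kit high leukemic cells, 2 Msi2 -/- and 2 control, grouped by their titles. The authors deposited whole-number read counts for each gene symbol, without normalization. The submitters' processing notes name Trimmomatic, STAR, HTSeq, DESeq and mm9, with no versions. The sources used here do not give the annotation, strand setting or overlap mode. Reads ambiguous between genes, or not uniquely aligned, have rows of their own among those that name no gene. Overlapping genes can lose reads in this way, among them 18 members that overlap another counted gene in the RefSeq table of GRCm38.p6. The 5 rows that name no gene, between 19.1% and 20.1% of the counts, were left out.

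Members and lists were chosen with earlier results of these data known. In R 4.3.3, edgeR 4.0.16 was fitted over all genes (filterByExpr, minimum count 10 and total 15, TMM scaling, quasi-likelihood test, group as the only term, Benjamini-Hochberg adjustment at 0.05). The standard error comes from the F statistic, and the 95% interval from its t distribution. DESeq2 1.42.0 and limma 3.58.1 (voom) were alternatives, beside RLE scaling, total counts, no filter, the likelihood ratio test, the replicate block and leaving out each library. The steps were tested on simulated data. Replicates differed by more than sampling noise (chi-square per gene 151 in Msi2 -/-, 62.1 in control), so each counts as 1 sample. The series' design text gives 2 mice per genotype. The first number in the library names is the same within a genotype and differs between them, and if it marks a batch, batch and genotype cannot be told apart. Named genes were up to 8 members per direction of smallest p, the 4 highest and 4 lowest per coding length, 9 landmarks, every called member and 2 genes per list. Further genes were added after their values were seen: Mrpl48, Dap3, Ikzf2, Pecam1, Kit, Mpo, Cd79b, Mettl17, Nrf1, Gabpa, Yy1 and Rab6a. So were the other neutrophil, monocyte and stromal markers named. Promoters and gene lengths came from GRCm38 tables, as no genome of the files' build was used here. Counting error alone does not cover the spread between mice.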

Additional observations from a re-analysis of the deposited data

How the results depend on the processing

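The count of members called was 0 under every alternative except DESeq2, which called 2. For all genes tested, edgeR's single call became 6 with no filter on low counts, 312 with the likelihood ratio test, 776 with DESeq2 and 0 with limma-voom. Leaving out a library gave between 0 and 106 calls, where a group of 1 mouse is assumed to vary like the other. With the replicate number as a block, edgeR called 0 genes and 0 members. The numbers are not said to pair mice, and same-numbered libraries deviated from their group means with a correlation of 0.0393 across genes. The median log2 fold change of the members lay between -0.061 and 0.001 and the log2 ratio of their summed level between -0.059 and 0 over all alternatives. Each alternative moved these from -0.027 and -0.025 by less than the larger of the SDs of the 2 groups. That SD, of the Msi2 -/- mice, was 0.0414 for the median and 0.0344 for the summed level. The controls spread less (SD of the sum 22.6 CPM, against 115 CPM in Msi2 -/- cells), so this limit is a wide one. Some alternatives, among them total counts, moved the values by more than the spread of the controls. Of 176 results for the 16 members named by their p, over 11 alternatives, 174 kept their direction and side of the threshold and 2, Mrpl19 and Mrpl50 with DESeq2, passed it. Mrpl19 ran from -0.487 without control 1 to -0.296 without control 2. Ranking by transcript length was chosen after seeing the data. Precision is limited by the 2 mice per genotype and by depth, the lowest count of a member in a library being 543.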
